A study of Arabidopsis thaliana with 3 samples.

Results

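GRP7 (AT2G21660) and GRP8 (AT4G39260, listed under the symbol CCR1) are a pair of Arabidopsis thaliana genes for glycine-rich RNA-binding proteins. Both were found by their gene identifiers in the table of binding sites and are 2 of the 1504 target genes of TSN1, Tudor staphylococcal nuclease 1, in this series. Their called peaks were those inside the gene span on the strand of the gene. TSN1 crosslinks to RNA were mapped by iCLIP2, in which ultraviolet light joins a protein to the RNA it touches and the end of the copied DNA marks the position of the crosslink. All 3 biological replicates belonged to 1 group, seedlings of genotype pTSN1::GFP:TSN1 in Col-0. These plants express TSN1 tagged with green fluorescent protein (GFP) under its own promoter in a wild-type background. They were 14 days old, grew in 16 h light and 8 h dark at 20 °C, were harvested at ZT10 (10 h after lights on) and received 2000 mJ/cm2 at 254 nm. Tissue of 3 plates was pooled per replicate, mostly from above ground. The deposited lists merge the replicates, so neither depth nor the spread between replicates is known here, and there was no control pull-down or RNA level to set the peaks against.

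GRP7 and GRP8 proteins consist of an RNA recognition motif followed by a glycine-rich stretch. Their transcripts oscillate under the circadian clock with a maximum towards the evening and respond to cold. GRP7 protein binds its own transcript and that of GRP8 and favours a splice form that is degraded, so that each protein limits its own and the other's messenger RNA. TSN1 is known from stress granules and as an RNA-associated protein of the cytoplasm.

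GRP7 carried 64 called peaks and 2 binding sites, GRP8 9 called peaks and 1 binding site. A called peak is a single nucleotide that the authors scored as a crosslink position, and a binding site is a window of 5 nt around such a peak. The scores are the authors' own values with no stated unit and are used here to describe and rank. All peaks of both genes lay on the minus strand, with 0 called peaks on the other strand of either gene span. The sources used here do not say how reads that match both genes were treated.

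GRP7 peaks covered most of the gene, while its sites lay near the ends of the peak-bearing stretch. In TAIR10 coordinates the 64 peaks ran from 9265320 to 9266375 on chromosome 2, a stretch of 1056 nt. On a scale from 0 at the 5′ end of the gene span to 1 at the 3′ end, introns included, they ran from 0.12 to 0.84. Neighbouring peaks were a median of 6 nt apart, against 8.5 nt in the median gene of 1711 nuclear protein-coding genes with at least 5 called peaks. Between neighbouring peaks, the longest stretches without a peak measured 108, 107 and 70 nt, leaving out the ends of the gene span. The first of these lay between 9266098 and 9266206, the next between 9265392 and 9265499 and the last between 9265987 and 9266057. Called peaks have no region label in the deposited list and no exon model was used. Peaks between the sites could therefore not be divided among untranslated regions, coding sequence and intron.

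The 3′ site of GRP7 (BS2475, chromosome 2, 9265374 to 9265378, labelled 3′ UTR) held 3 called peaks and had a score of 51.6, above 95.1% of all 5673 binding sites. The peak at 9265376 scored 51.6, its neighbour at 9265375 scored 23.0 and that at 9265378 scored 6.84. The 5′ site (BS2478, 9266325 to 9266329, labelled 5′ UTR) held 2 called peaks, with scores of 6.48 at 9266327 and 4.75 at 9266329. Its score was above 14.7% of all sites. GRP7 thus had 1 site among the stronger ones of the series and 1 among the weaker ones, at relative positions of 0.80 and 0.16. No site of GRP7 was labelled coding sequence or intron.

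Between its sites GRP7 had 53 called peaks over 920 nt, and none of them was inside a binding site. Their scores had a median of 3.92 and ranged from 0.0304 to 19.4, and 9 of them were above 10. The lowest of these 9, 10.2 at 9266302, was above 81.6% of all called peaks, so scores above 10 were not rare in the series. The highest between the sites was at 9265873 with 19.4, followed by 18.1 at 9266212, 15.6 at 9265566, 15.5 at 9265383 and 15.0 at 9265857. Further 5′ than the 5′ site, a peak at 9266374 scored 13.4, more than either peak of that site.

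**Figure D1:**
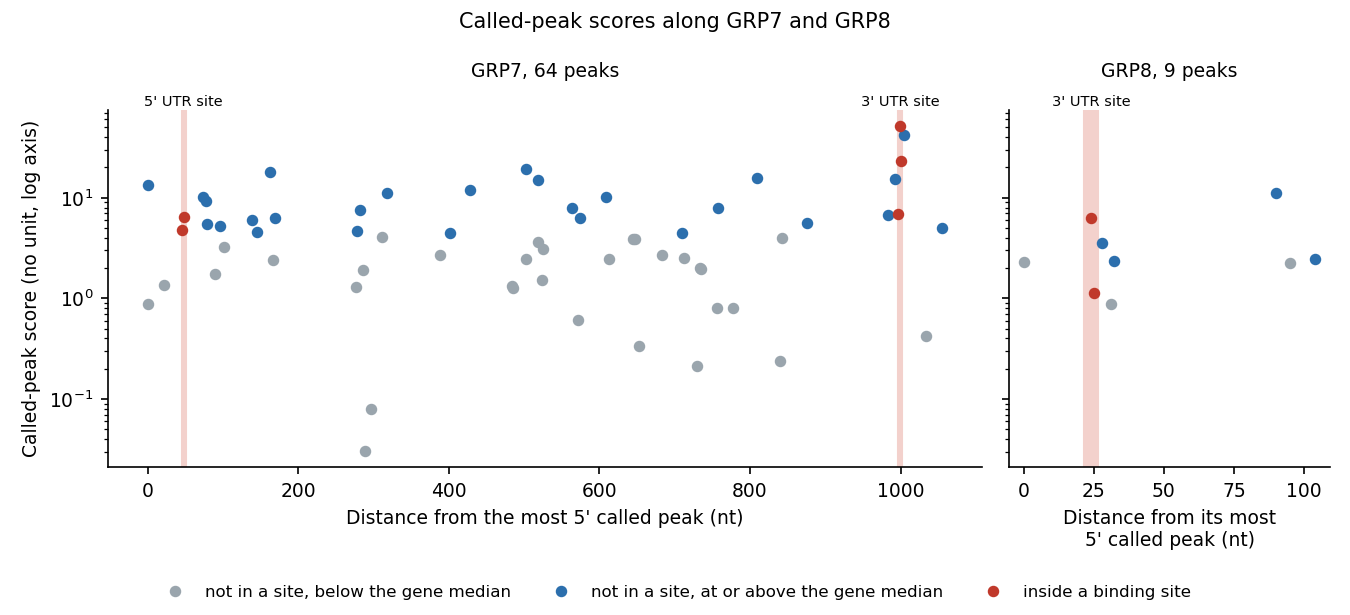
Each point is a called peak of GRP7 (left) or GRP8 (right), placed by its distance in nt from the most 5′ called peak of the gene, with its score (no unit) on a log axis. Red points lie inside binding sites (shaded), blue points have a score at or above the median of their gene and grey points a lower one; the 2 sites of GRP7 stand near the ends, and many blue points between them have no site.

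GRP8 peaks were confined to a short stretch near the 3′ end. The 9 peaks ran from 18273992 to 18274096 on chromosome 4, over 105 nt, at relative positions from 0.81 to 0.88. Its site (BS5275, 18274070 to 18274074, labelled 3′ UTR) held 2 called peaks, with scores of 6.35 at 18274072 and 1.13 at 18274071. The site score of 6.35 was above 14.0% of all sites. The highest peak of GRP8, 11.3 at 18274006, was not in a site. Its nearest neighbour, 5 nt away at 18274001, scored 2.23. The other 5 peaks of the gene scored between 0.889 and 3.53. The 3′ sites of the genes had similar relative positions, 0.80 in GRP7 and 0.82 in GRP8, and no called peak of GRP8 lay in the part where GRP7 had its 5′ site.

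The 3′ end of GRP7 differed from the rest of the gene in a second value of the list. Each called peak has 4 named scores, of which the lowest is the peak score in all 72935 called peaks. One of them, written E and not explained in the file, had values between 53.6 and 106 in the 8 GRP7 peaks from 9265320 to 9265392. It had values between 9.90 and 29.1 in the other 56 peaks of GRP7. The groups were divided at an E of 50 after the values were seen. That they do not overlap in E therefore follows from the division. The 8 peaks were also the 8 most 3′ of the gene. How often other genes show such a split was not tested. The lowest E value in the 3′ stretch was above that of 96.3% of all called peaks. Within this stretch of 73 nt the peak scores still varied from 0.427 to 51.6, and 3 of the 8 peaks were inside the site. In GRP8 the E score ranged from 5.94 to 14.9, and the highest of its values belonged to a peak inside the site. The E score was lower than the CL score, and so set the peak score, in 6 of 64 GRP7 peaks and 1 of 9 GRP8 peaks, against 11.8% of 68178 peaks of other genes.

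**Figure D2:**
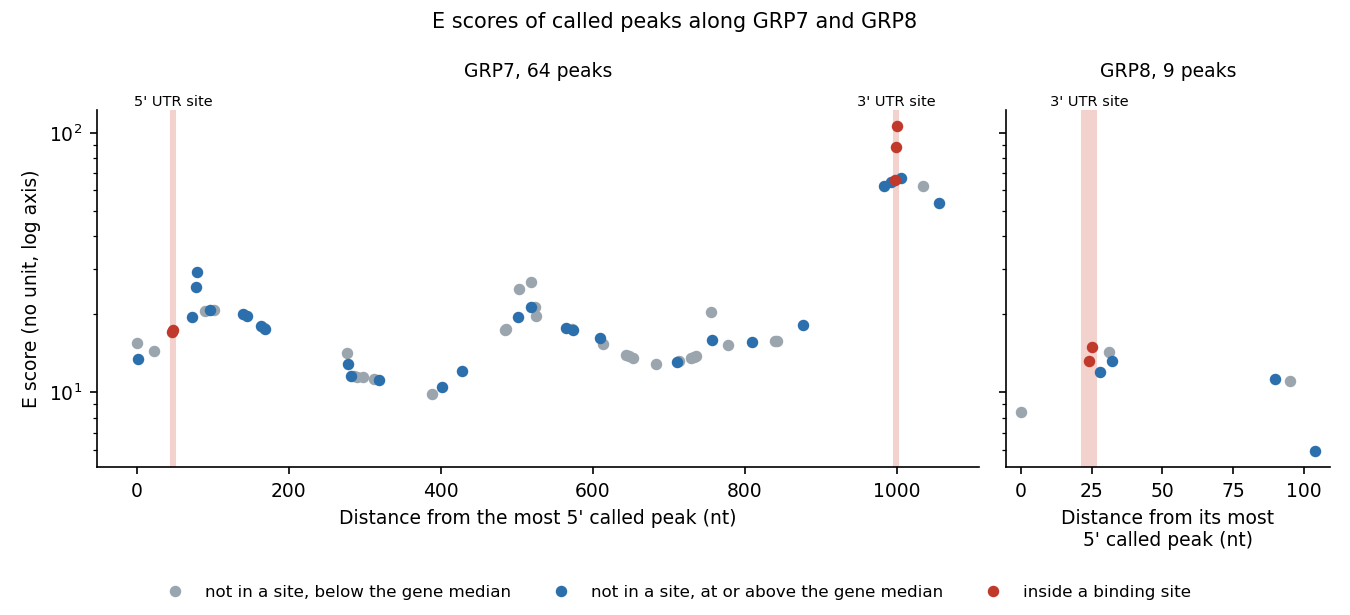
The E score of each called peak (no unit, log axis) against its distance in nt from the most 5′ called peak, for GRP7 (left) and GRP8 (right), with colours and shading as for the peak scores. The 8 most 3′ peaks of GRP7 sit at 53.6 to 106, above the 9.90 to 29.1 of all other peaks of that gene. These groups were divided by the E score itself, at 50.

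The first question was whether GRP7 peaks fell inside sites less often than peaks of other genes. In GRP7 5 of 64 called peaks were inside a site (7.81%, Wilson 95% interval 3.38 to 17.0), against 11139 of 68187 in all other genes (16.3%, 16.1 to 16.6). The odds ratio was 0.43 with an exact 95% interval from 0.14 to 1.07. By two-sided Fisher's exact test p was 0.0639, and 0.368 after Benjamini-Hochberg adjustment over 1711 genes, so the lower share of GRP7 did not pass the threshold of 0.05. In GRP8 2 of 9 peaks were inside its site (22.2%, 6.32 to 54.7; odds ratio 1.46, exact interval 0.15 to 7.69, Fisher's exact test adjusted p = 0.898). Of the 2 genes 0 were called, where 0.584% of the 1711 genes were called lower, 1.52% higher and 2.1% in either direction. At an unadjusted p under 0.05 the count was also 0, where 14.3% of the 1711 genes passed. The difference between GRP7 and GRP8 did not pass the same exact test (odds ratio 0.30, interval 0.039 to 3.75, p = 0.205), and its interval holds large differences in either direction. It passed (exact test, p = 0.0248) when peaks within 5 nt of a site were counted as inside, with 7 of 64 against 4 of 9. Those 4 GRP8 peaks lay in 1 run of neighbouring peaks. By the same exact test the difference did not pass with runs counted once (p = 0.298). Nor did it pass with only peaks above the median score (exact test, p = 0.294). Peaks of a gene lie on 1 RNA and are not independent, so intervals and p-values cover neither this dependence nor differences between plants.

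Among all genes, GRP7 had many peaks and a share in sites below the median. Of the 1711 genes, 79.5% had fewer called peaks than GRP7 and 28.5% had a lower share inside sites, where the median gene had 14.7%. The 1711 genes include 371 without a site, so the rank of the share depends on them. Its median peak score of 4.24 was above that of 77.0% of genes. Against the 105 genes with 58 to 70 called peaks, the 2 sites of GRP7 were few: these genes had a median of 5 sites (quartiles 4 and 6, range 1 to 9), and 10 of them had 2 or fewer. A share below that of GRP7 was found in 8 of the 105. The highest peak score of GRP7, 51.6, was exceeded in 16 of them, and their median was 19.4. GRP7 thus had few sites for its number of peaks and a high strongest peak, as a description with no test.

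**Figure D3:**
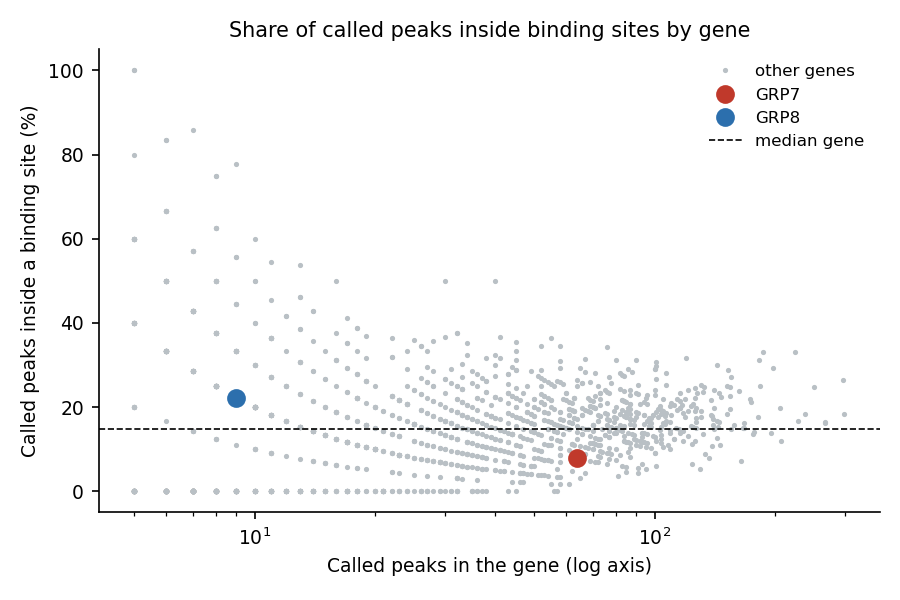
Each point is 1 of 1711 genes with at least 5 called peaks, placed by its number of called peaks (log axis) and the percentage of them inside a binding site; the dashed line is the median gene at 14.7%. GRP7 (red, 64 peaks, 7.81%) lies below the line and GRP8 (blue, 9 peaks, 22.2%) above it, both within the range of genes with similar numbers of peaks.

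The genes most like GRP7 by a fixed measure, the closest share inside sites among those with a peak number within 10% of its own, were BT1, BAM1 and EXO. BT1 (AT5G63160), a gene for a BTB and TAZ domain protein, had 63 called peaks, of which 5 (7.94%) were inside its 2 sites. BAM1 (AT5G65700), a receptor-like kinase gene, had 69 peaks with 5 inside 3 sites, and EXO (AT4G08950), a gene tied to brassinosteroid-dependent growth, had 58 peaks with 5 inside 3 sites. The highest peak score was 19.9 in BT1, 14.4 in BAM1 and 27.2 in EXO, each below the 51.6 of GRP7.

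Peaks inside sites had close neighbours throughout the series. In the whole list 31528 called peaks had no other called peak within 4 nt, and 0 of them were inside a binding site. In GRP7 24 of 64 peaks (37.5%, Wilson 26.7 to 49.7) stood alone in this way, against 43.7% of peaks of other genes, so lone peaks were not more common in GRP7. The second-highest peak of the gene was among them. It scored 42.1 at 9265370, 5 nt from the nearest peak of the 3′ site, and another lone peak of 15.5 at 9265383 lay 5 nt from the site's other end. In GRP8 4 of 9 peaks were alone, among them its highest.

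The other 40 peaks of GRP7 formed 17 runs of at least 2 peaks with at most 4 nt between neighbours, and 2 of the runs (11.8%, Wilson 3.29 to 34.3) had a site. In other genes 4849 of 14859 such runs had one (32.6%, 31.9 to 33.4). GRP8 had 1 run, of 5 peaks over 9 nt, and it held the site. In genes with at least 10 called peaks, whether a run had a site followed the rank of its second-highest peak within the gene, a relation found after the data were seen. Where that peak was at or below the 50th percentile of the gene's scores, 24 of 8337 runs (0.288%, 0.194 to 0.428) had a site, and where it was above, 4614 of 5912 did (78.0%, 77.0 to 79.1). From the bin of the 40th to 50th percentile to the next the share went from 0.913% to 69.5%. Of the 17 GRP7 runs 12 fell below this step and 5 above it. In all genes with at least 10 called peaks most runs also fell below, 8337 against 5912. Of the 12 GRP7 runs below the step 0 had a site, close to the 0.288% of all such runs. Of the 5 above it, 2 had a site.

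**Figure D4:**
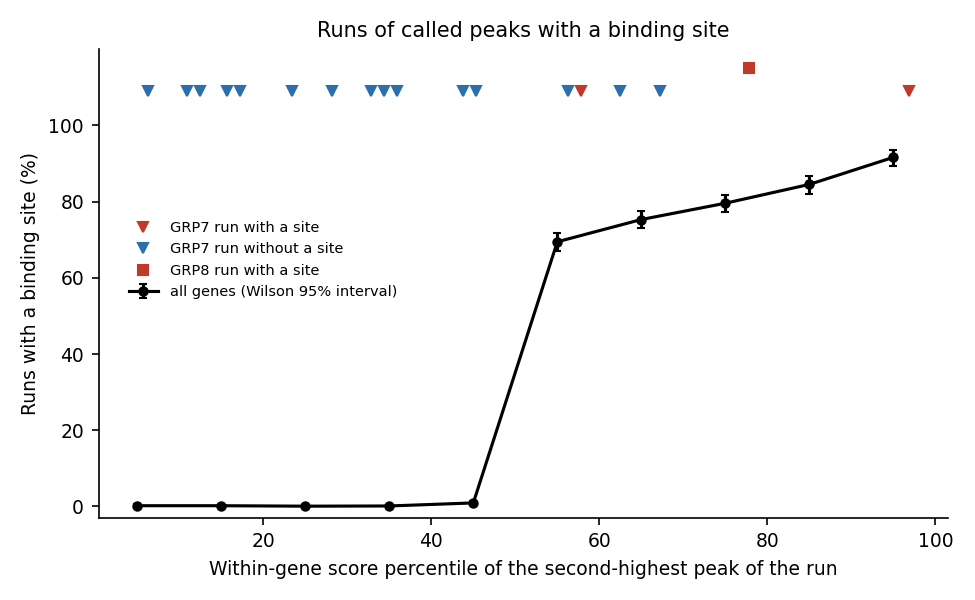
Black points give the percentage of runs of at least 2 called peaks that have a binding site, with Wilson 95% intervals, by the within-gene score percentile of the second-highest peak of the run, over all genes with at least 10 called peaks. Marks above the curve place the 17 GRP7 runs (triangles) and the GRP8 run (square) on the same axis, red with a site and blue without. GRP8, with 9 called peaks, is not among the genes of the curve. On the low side of the step lie 12 GRP7 runs, and 8337 runs of all genes of the curve against 5912 on the high side.

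Some strong peaks of GRP7 had only weaker neighbours. In 7 of the 12 runs without a site below the step, the highest peak was above the median of the gene and its neighbours were below it. The peak of 19.4 at 9265873 lay beside 1 of 2.47, that of 15.0 at 9265857 beside 1 of 3.63 and that of 13.4 at 9266374 beside 1 of 0.872. Of the 32 GRP7 peaks at or above the gene's median score, 14 stood alone, 9 had only weaker peaks within 4 nt and 9 had another such peak within 4 nt. Those last 9 were 14.1% of all GRP7 peaks (Wilson 7.58 to 24.6), against 20.4% (20.1 to 20.7) in other genes, and 25.4% of genes had a lower percentage. In other genes 13932 of 34581 peaks at or above the gene's median had another such peak within 4 nt. Lone peaks at or above the median, those with only weaker neighbours and the 7 of 12 runs were not counted in other genes. Among the 10 highest GRP7 peaks 2 were inside a site, while the 105 genes with a like number of peaks had a median of 4 (range 0 to 8), and 30 of them had 2 or fewer.

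Peaks at or above the gene's median formed 4 runs in GRP7, and 2 of the 4 had a site (Wilson 15.0 to 85.0%). In other genes 4849 of 5979 such runs had one (81.1%, 80.1 to 82.1). The 105 genes with a like number of peaks had a median of 6 such runs (range 1 to 9), and 27 had 4 or fewer. The GRP7 runs without a site lay at 9266093 to 9266097, with a highest score of 7.58, and at 9266296 to 9266297, with 9.26. Both scored above the 6.48 of the listed 5′ site and below the 51.6 of the listed 3′ site. In other genes 71.5% of such runs with a highest score between 5 and 10 had a site, against 99.6% with a score above 20. The authors' site numbers leave 2 numbers free between BS2475 and BS2478, as many as there are unlisted runs of this kind between these sites. The match depends on how runs are defined. The run at 9266206 to 9266212 (highest score 18.1, second-highest 6.37) lay above the step and between the sites, also without a site. It is not among the 4, because its peaks at or above the median were more than 4 nt apart. Numbers were also free outside the sites, 1 after BS2478 and, in GRP8, 1 before and 2 after BS5275. Which runs the free numbers stood for is not known. In all genes, 489 pairs of neighbouring sites had free numbers between them, and in 340 of these (69.5%) there were as many unlisted runs. Of 3312 pairs with no free number, 3267 (98.6%) had no unlisted run between them. Why the GRP7 runs without a site have none was not tested.

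**Figure D5:**
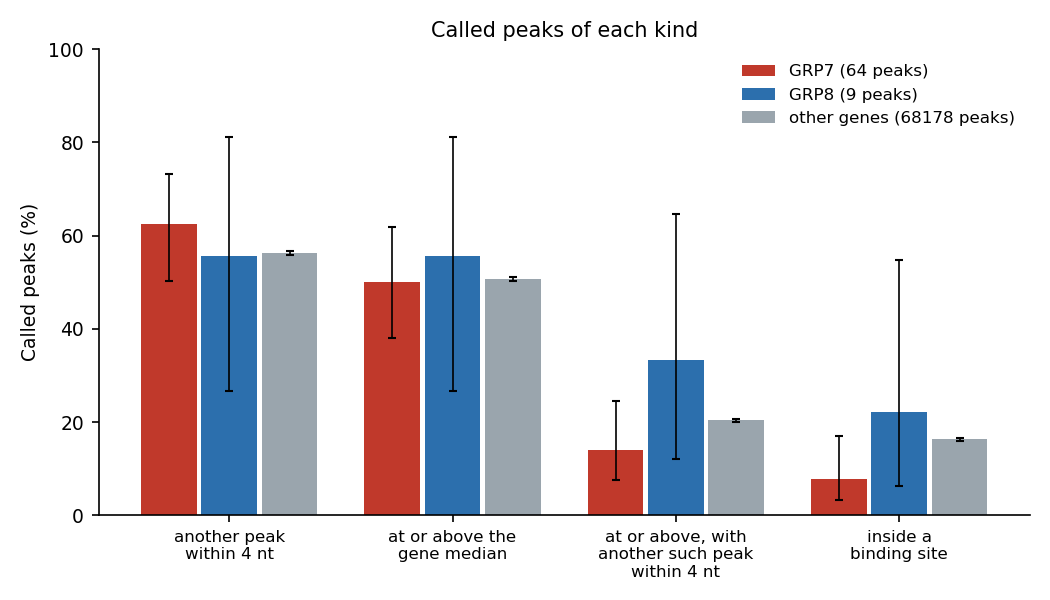
Bars give the percentage of called peaks of GRP7 (64 peaks), GRP8 (9 peaks) and other genes (68178 peaks) that have another peak within 4 nt, that score at or above the median of their gene, that do so with another such peak within 4 nt, and that are inside a binding site; error bars are Wilson 95% intervals. GRP7 has 62.5% against 56.3% in other genes in the first group, 50% against 50.7% in the second, 14.1% against 20.4% in the third and 7.81% against 16.3% in the last.

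Taking score and spacing together, 8.98 of the 64 GRP7 peaks would be inside sites at the rates of other genes' peaks in the same score decile and with the same number of neighbours within 4 nt, compared with 5 observed. For GRP8 the number was 1.39 of 9, compared with 2 observed. These numbers are descriptions with no test.

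Other RNA-binding protein genes were compared by presence in the lists. Of 11 genes for glycine-rich RNA-binding proteins, including the zinc knuckle members, 3 had called peaks and 2 had sites, GRP7 and GRP8 themselves. The third, GR-RBP2 (AT4G13850), a mitochondrial member of the family, had 7 called peaks with a highest score of 9.49 and no site. The pair was taken from the list of binding sites, so its part in these counts was fixed beforehand. No other member of the family had a site. Among all 27444 nuclear protein-coding genes 6.69% had a called peak and 5.04% a site. Genes for plastid ribonucleoproteins with RNA recognition motifs, several of which bind and stabilise plastid transcripts, had sites in 4 of 5 cases. They were AT2G37220 with 86 peaks and 8 sites, PSRP2 with 48 and 6, RBP31 with 46 and 4 and CP29 with 31 and 1. RBP31 (AT4G24770), with fewer peaks than GRP7, thus had more sites, although its highest peak score of 21.0 was below the 51.6 of GRP7. Of 4 genes for cold shock domain proteins 1 had called peaks, GRP2 (AT4G38680) with 7 peaks, a highest score of 4.42 and no site. Of 6 genes of the RBP45 and RBP47 group 1 had called peaks, RBP45B with 8 and no site. None of 3 cytosolic poly(A)-binding protein genes and none of the clock genes CCA1, LHY and TOC1 had a called peak. RNA levels were not measured, so presence in the lists and abundance cannot be told apart.

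The tissue label was checked against markers. Of 5 leaf genes 4 had sites, with 12 in the carbonic anhydrase gene CA1, 10 in the Rubisco activase gene RCA, 6 in PSAD-1 and 2 in RBCS1A, while LHCB2.1 had no called peak. Of 5 root genes 1 had sites, PYK10 with 18, and EIR1, RHD2, SCR and SHV2 had no called peak. Among all nuclear protein-coding genes 5.04% had a site. More leaf than root genes had sites, but PYK10 had more sites than any of the leaf genes. With 5 genes per list, these counts describe the label and do not test it.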

How the data were processed

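RNA crosslinked to GFP-tagged TSN1 was sequenced from 3 biological replicates as 50 nt single-end reads after 18 PCR cycles, per the labels' protocols. Tools listed in the submitters' processing notes include the aligner STAR 2.7.3a, UMI-tools 1.0 and bedtools 2.27.1, with the TAIR10 build. The sources used here do not give the peak caller's settings or the rule for sites. The deposited score of a called peak has no stated unit. The deposited score of a site is the highest called-peak score in it, per the file headers and in all 5673 sites.

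Spans of a reference gene table (TAIR10.1), which held 5199 of 5208 nuclear sites of protein-coding genes, assigned 68251 of 71311 nuclear peaks to exactly 1 gene on its strand. None of its coordinates is printed. The strand of a gene without sites was the one with more peaks. Depth is unknown, so Wilson and exact 95% intervals cover counting error of peaks only. Each gene with at least 5 peaks was tested by Fisher's exact test (scipy 1.17.1) against all others with Benjamini-Hochberg adjustment (statsmodels 0.14.6), after trials on simulated data. The simulated peaks were independent of each other, so the trials do not cover the dependence between neighbouring peaks. Named genes were the pair, the 3 genes most like GRP7 and members of the RNA-binding list with a called peak. The clock and tissue marker genes, outside that rule, come from short fixed lists and are named whatever their values. Genes, lists and tests were chosen with earlier results of these data known.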

Additional observations from a re-analysis of the deposited data

How the results depend on the processing

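The share of called peaks inside sites was recomputed with 6 planned settings. These used only peaks above the median score, counted peaks within 5 nt of a site as inside, counted each run once, took only targets as background, tested genes with at least 1 peak, or left out the 10 genes with the most peaks. In GRP7 the share ranged from 4.88% with runs counted once to 13.9% with peaks above the median score. It was below that of other genes in each setting, and the adjusted p by Fisher's exact test was between 0.132 and 1. Unadjusted, p was 0.0245 with peaks within 5 nt and 0.0462 against targets only. For GRP8 the share was above that of other genes in each, and the adjusted p by Fisher's exact test was between 0.464 and 1. With peaks within 5 nt of a site counted as inside, GRP7 had 7 of 64 (10.9%) and GRP8 4 of 9 (44.4%), and their difference passed the exact test (p = 0.0248), where the main setting gave 0.205. The difference did not pass the exact test with runs counted once (p = 0.298) or with peaks above the median score (p = 0.294). The comparison is between 2 genes chosen with results known. The number of genes called was 36 in the main setting, 182 with peaks within 5 nt, 2 with peaks above the median score and 1 with runs counted once. Of settings chosen after seeing the data, runs of at least 2 peaks gave 2 of 17 for GRP7 (unadjusted p = 0.0733 by Fisher's exact test) and runs of peaks at or above the gene median 2 of 4 (p = 0.164). The matched number for GRP7 was 11.1 with neighbours within 10 nt and 8.91 with score quartiles, and for GRP8 1.37 and 1.34. No paired analysis was possible because there was 1 group and no value per replicate, which also left no replicate to leave out. Small numbers of peaks, 9 in GRP8, limit what these shares can show.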
